A study of Arabidopsis thaliana with 8 samples.

Results

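Dihydrophaseic acid (DPA) was compared with phaseic acid (PA) in whole seedlings of Arabidopsis thaliana, wild type of the Columbia ecotype, grown for 10 days on MS medium under continuous light. The comparison rests on the 2 PA and 2 DPA libraries out of 8 RNA sequencing libraries, each compound having been given at 50 µM for 3 h to biological duplicates. The other 4 libraries, 2 mock-treated and 2 given abscisic acid (ABA) at 50 µM for 3 h, served as reference levels and added to the estimate of the spread. Dose, exposure, age and genotype were thus matched, and in these labels the PA and DPA groups differ only in the compound named. PA and DPA are the single pair of compounds compared here.

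ABA is the plant hormone of drought and seed dormancy. It binds soluble receptors of the PYR/PYL family, and the occupied receptor blocks clade A protein phosphatases 2C, which frees SnRK2 kinases to activate transcription factors of the ABF type. ABA is inactivated by CYP707A enzymes, whose hydroxylated product closes into PA, and PA is then reduced to DPA. PA and DPA differ in a single functional group, a ring ketone in PA that is a hydroxyl in DPA. PA is known to act on some of the ABA receptors. Transcription factors of the ABF type bind promoter elements built on the core ACGTG.

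The libraries held between 11468318 and 15934091 reads assigned to genes. All levels below are normalized read counts, that is reads divided by the size factor of the library. They compare a gene between libraries and not genes with each other. Where 2 values of a group are given, the library with the higher size factor comes first. In 16418 genes averaging 50 or more, the standard deviation of the log2 difference between duplicates was 0.218 with PA, 0.241 with DPA, 0.228 with ABA and 0.336 in mock, so the mock pair was the most spread. Of the 5 leaf photosynthetic markers tested, none was called between DPA and PA, and their summed level was 319977 and 332478 with PA against 343796 and 319201 with DPA. The 3 pollen markers summed to at most 5.11 in any library, at or near 0. The 9 listed seed storage and oil body genes were not near 0. Their sum ran from 784 in a mock library to 3550 in a PA library. The duplicates were unequal, at 3550 against 1574 for PA and 1112 against 1762 for DPA. Whether seed tissue was present unevenly was not tested. In RNA from whole seedlings, fewer cells of a type and less RNA per cell cannot be told apart.

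With DPA in place of PA, 479 of 19617 tested genes were lower and 273 were higher. These were 2.44% and 1.39% of the genes tested (limma on log2 of normalized count plus 1, Benjamini-Hochberg adjusted p under 0.05). The fall reached at least 2-fold in 231 genes and at least 4-fold in 104, and the rise in 111 and 53. The median log2 difference, DPA minus PA, was -0.94 in the lower genes, 0.79 in the higher genes and close to 0 over all genes tested. In every called gene the DPA libraries stood apart from the PA libraries without overlap, while 27.2% of all tested genes were so separated downwards and 26.1% upwards. At this depth the median standard error of a log2 difference was 0.135, and for 51.8% of genes the 95% interval lay within 0.5 on either side of 0. The plot of differences against level shows both tails.

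**Figure D1:**
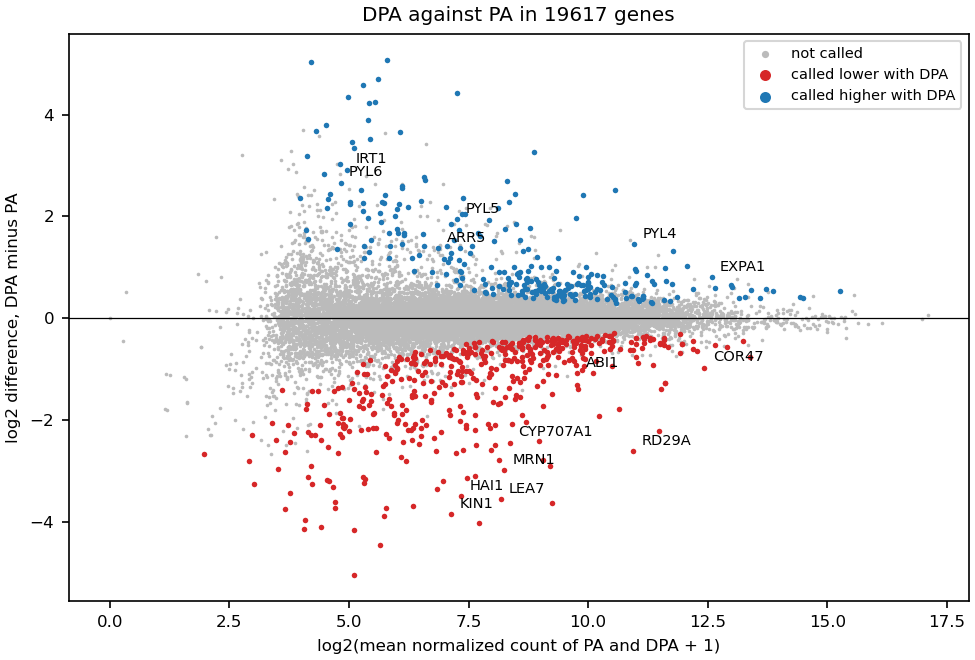
Log2 difference between DPA and PA (y axis) against the log2 mean normalized count of the PA and DPA groups plus 1 (x axis), 1 point per tested gene. The 479 genes called lower with DPA (red) and the 273 called higher (blue) span -5.05 to 5.09, and those below 0 include the phosphatase gene HAI1 and the dehydration genes KIN1, LEA7 and RD29A.

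The counts of called genes moved with the libraries in the fit. Without either PA library 133 or 139 genes were lower and 40 or 48 higher, and without either DPA library 196 or 233 were lower and 49 or 100 higher, in each case with the library of higher size factor left out first. Without either ABA library the counts were 297 and 297 lower and 151 and 152 higher, and without either mock library they were 957 and 945 lower and 845 and 857 higher. Each of these fits also has 1 residual degree of freedom fewer. A normal test was also made on the difference of the fold changes in the authors' deposited tables, with standard errors implied by their p-values. It called 52 lower and 14 higher, and all 66 were called in the same direction by limma. An implied error can become very wide where a p-value is near its ceiling, as for genes near mock. Both fold changes also share the mock libraries.

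Beside mock, the levels are a description, since the genes were chosen on their DPA and PA values. The 479 lower genes had a median normalized count of 145 in mock, 312 with PA, 134 with DPA and 814 with ABA. Their median log2 ratio to mock, from the group means in the authors' deposited tables, was 0.86 with PA and -0.12 with DPA, the middle 50% of genes lying between -0.28 and 0.06 with DPA. The 273 higher genes had a median of 440 in mock, 310 with PA, 556 with DPA and 210 with ABA. Their median log2 ratio to mock in the authors' deposited tables was -0.53 with PA and 0.27 with DPA, with the middle 50% between 0.16 and 0.47. Both ratios share the mock libraries, so they are given side by side only.

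In the authors' deposited tables, 283 genes were called higher with PA than mock (1.18% of those with a p-value) and 35 lower (0.146%). With DPA the same tables called 2 higher (0.00834%) and 1 lower (0.00417%). The limma fit called 361 genes higher (1.84%) and 61 lower (0.311%) with PA than mock, and 0 in either direction with DPA (0% each), where the smallest adjusted p was 0.874 and 1081 genes had an unadjusted p under 0.05. The limma fit estimates a single spread per gene over all 4 groups, so the standard error from mock is the same for both compounds. Its median, 0.135, says nothing on the spread within either group.

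The 283 genes called higher with PA in the authors' deposited table were chosen on the same PA libraries, so their position in the DPA-to-PA comparison is a description. Of these, 218 were called lower with DPA than PA and 0 higher. In 278 both DPA libraries lay below both PA libraries, against 27.2% of all tested genes. Their median normalized count was 65.8 in mock, 208 with PA and 82.2 with DPA. In 22 of the 281 with a value in mock and DPA, the log2 ratio of DPA to mock passed 1 in size. The limma interval for DPA minus mock covered 0 in 214 of the 283 and lay wholly within 1 log2 unit of 0 in 178. Over all 19617 tested genes it left out 0 in 1081, those with an unadjusted p under 0.05 by limma. Intervals leaving out 0 were thus more frequent among the 283 than among all tested genes. The share of all genes within 1 log2 unit was not counted. The other 65 genes were not called between the compounds, with log2 differences from -2.15 to -0.19. Among those nearest to 0 were PGIP1, an inhibitor of fungal polygalacturonase, at 936 and 928 with PA against 923 and 725 with DPA (log2 -0.19, 95% interval -0.42 to 0.05), and HSP70, a chaperone gene, at 2066 and 2083 against 1486 and 2176 (-0.21, -0.61 to 0.20). For HSP70 the libraries overlap and for PGIP1 they do not. Of the 35 genes the authors' deposited table calls lower with PA, 30 were called higher with DPA than PA. All 35 had both DPA libraries above both PA libraries, against 26.1% of all tested genes.

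**Figure D2:**
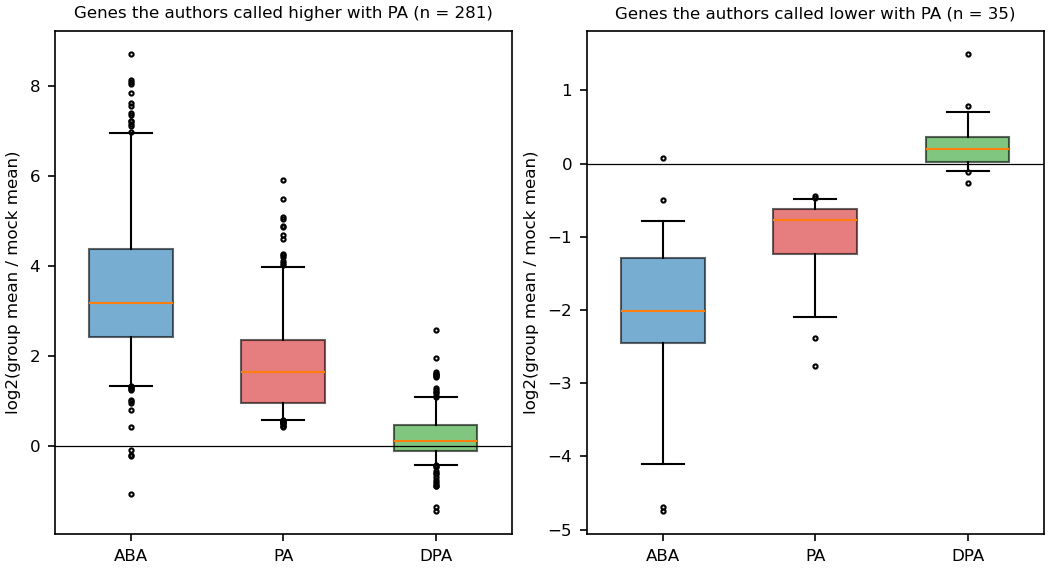
Log2 ratio of each group mean to the mock mean (y axis) for genes that the authors called higher with PA (left, 281 with a value in mock and DPA) and lower with PA (right, 35). Boxes span the middle 50% of genes with the median as a line, and whiskers run from the 5th to the 95th percentile. The DPA medians are 0.11 and 0.21 against 1.64 and -0.78 with PA, and the PA boxes describe the selection itself.

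Among called genes with a PA mean of at least 50, the 20 with the largest falls had log2 differences from -5.05 to -2.91. Genes below that mean, such as HAI3 and MYB41 described further on, were not ranked. In all 20 both PA libraries lay above both mock libraries. The DPA libraries overlapped the mock libraries in 10, lay below both in 5 and above both in 5. The 20 were ranked on their PA and DPA values, so their place beside mock is a description. How often all tested genes show these orders was not counted. ABA means were above both PA libraries in all 20. In the test on deposited fold changes, a gene near mock with DPA can fail because its implied error is wide. A failure there does not show that DPA and PA are alike. Taking the difference between the fold changes of the authors' deposited tables, 10 of the 19 with a value did not pass: AT5G28520 (adjusted p = 1), HSFA6B (0.546), AT3G48510 (0.376), CYP94B3 (0.299), KIN1 (0.0587), BGLU24 (0.376), AT4G10500 (1), LAC12 (1), AT1G69480 (0.25) and ABCG6 (0.0768).

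The deepest fall of the 20 was in AT5G28520, which encodes a mannose-binding lectin superfamily protein. It had 59.9 and 72.5 normalized counts with PA and 0.999 and 1.03 with DPA. This rests on 132 reads with PA and 2 with DPA, a 64.3-fold ratio (95% counting interval 17.4 to 536). HSFA6B, a heat shock transcription factor gene that responds to ABA, had 82.2 and 108 with PA, 2.00 and 5.16 with DPA, and 5.11 and 6.54 in mock (DPA minus PA -4.47, SE 0.35, adjusted p = 0.00024). The PA libraries of HSFA6B stood far above its DPA and mock libraries, which overlap, and below its ABA libraries at 466 and 528. AT1G49450, a WD40 repeat protein gene, had 353 and 436 with PA, 26.0 and 20.7 with DPA and 23.5 and 19.6 in mock. Its DPA and mock libraries interleave, and its difference from PA was -4.02 (SE 0.17, adjusted p = 6.2e-06). CYP94B3, which encodes an enzyme that hydroxylates the active jasmonate conjugate, had 75.4 and 123 with PA, 4.99 and 6.20 with DPA and 9.19 and 9.81 in mock (DPA minus PA -3.89, SE 0.26, adjusted p = 9.5e-05). The DPA libraries stood below the mock libraries and the PA libraries above them. CHX17, a cation/proton exchanger gene, had 217 and 196 with PA, 20.0 and 18.6 with DPA and 15.3 and 16.4 in mock. With ABA it had 223 and 300. LAC12, a laccase gene, had 74.5 and 67.8 with PA and 5.99 and 8.26 with DPA, and AT3G22620, a lipid transfer-like protein gene, had 1006 and 1057 against 161 and 116. The remaining falls were of AT3G48510, KIN1, AT2G34610, BGLU24, LTI30, LEA7, HAI1, AT4G10500, LEA4-5, LTP3, AT1G69480, ABCG6 and MRN1. The call for AT4G10500, a 2-oxoglutarate-dependent oxygenase gene at 61.7 and 80.7 with PA and 6.99 and 6.20 with DPA, did not pass without any one of the ABA, PA or DPA libraries (adjusted p 0.0624 to 0.169), and that for ABCG6 did not pass without either PA library (0.058 and 0.0674).

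**Figure D3:**
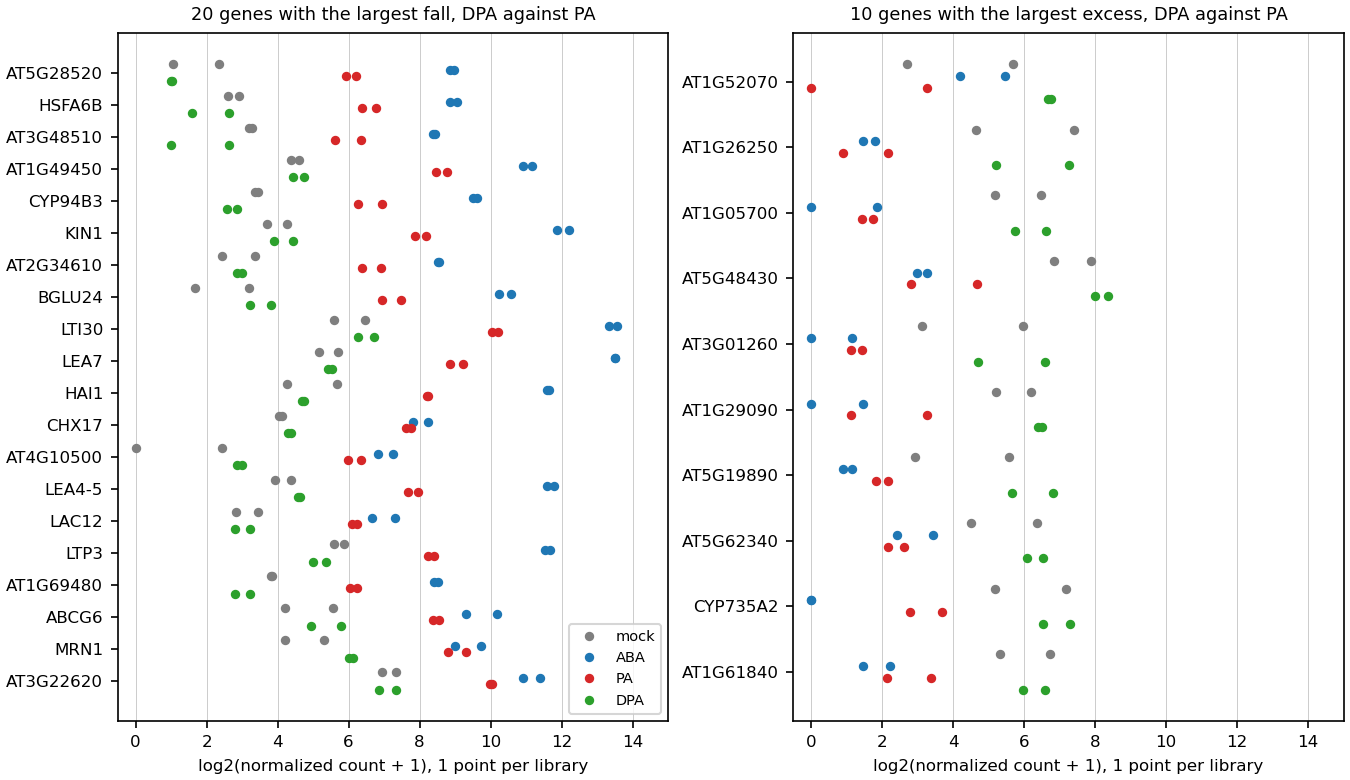
Log2 of normalized count plus 1 (x axis) in each of the 8 libraries, 1 point per library. Shown are the 20 genes with the largest fall (left) and the 10 with the largest rise (right) from PA to DPA. They were ranked among called genes with a mean of at least 50 in the higher group. On the left the green DPA points lie among or near the grey mock points and the red PA points lie between them and the blue ABA points, except in MRN1, where the PA and ABA points overlap. On the right the PA points lie below the DPA points and the mock points of a gene are spread widely.

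The promoters of 6 genes are printed to show the letters beside the response. RD29B, LEA7 and LEA4-5 are dehydration genes picked for having matches to ACGTG, and the dehydrin gene LTI30, the phosphatase gene HAI1 and the receptor gene PYL5 had large differences and no match. Each is the 300 bases before the annotated gene start in RefSeq TAIR10.1, read 5′ to 3′ on the strand of the gene, with ACGTG on either strand (CACGT on the printed strand) in capitals. They lie at chr5:21236721-21237020 (RD29B, plus strand), chr1:19619424-19619723 (LEA7, plus), chr5:2090431-2090730 (LEA4-5, minus), chr3:18940343-18940642 (LTI30, plus), chr5:23896940-23897239 (HAI1, minus) and chr5:1608688-1608987 (PYL5, plus).
RD29B: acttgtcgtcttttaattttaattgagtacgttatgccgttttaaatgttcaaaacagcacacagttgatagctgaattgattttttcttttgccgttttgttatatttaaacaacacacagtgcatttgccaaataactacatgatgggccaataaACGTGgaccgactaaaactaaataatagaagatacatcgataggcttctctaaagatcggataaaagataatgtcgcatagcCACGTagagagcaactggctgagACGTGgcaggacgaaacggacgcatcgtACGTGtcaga
LEA7: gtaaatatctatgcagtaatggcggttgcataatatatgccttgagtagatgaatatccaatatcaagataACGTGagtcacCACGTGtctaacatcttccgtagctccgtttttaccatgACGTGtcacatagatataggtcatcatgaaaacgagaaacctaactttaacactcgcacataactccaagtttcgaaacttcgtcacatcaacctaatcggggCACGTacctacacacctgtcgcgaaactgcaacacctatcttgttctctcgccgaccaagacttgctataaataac
LEA4-5: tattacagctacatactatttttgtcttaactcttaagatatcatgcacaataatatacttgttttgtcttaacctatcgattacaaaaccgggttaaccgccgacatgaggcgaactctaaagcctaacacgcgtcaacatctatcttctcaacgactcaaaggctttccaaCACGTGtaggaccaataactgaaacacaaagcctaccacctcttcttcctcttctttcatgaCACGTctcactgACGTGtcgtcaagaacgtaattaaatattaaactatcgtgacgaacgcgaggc
LTI30: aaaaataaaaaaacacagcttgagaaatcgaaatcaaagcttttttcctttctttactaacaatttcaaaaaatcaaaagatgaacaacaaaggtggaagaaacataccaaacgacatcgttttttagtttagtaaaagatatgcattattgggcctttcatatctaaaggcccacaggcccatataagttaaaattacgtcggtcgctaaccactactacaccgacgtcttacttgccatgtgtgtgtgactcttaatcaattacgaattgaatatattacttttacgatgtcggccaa
HAI1: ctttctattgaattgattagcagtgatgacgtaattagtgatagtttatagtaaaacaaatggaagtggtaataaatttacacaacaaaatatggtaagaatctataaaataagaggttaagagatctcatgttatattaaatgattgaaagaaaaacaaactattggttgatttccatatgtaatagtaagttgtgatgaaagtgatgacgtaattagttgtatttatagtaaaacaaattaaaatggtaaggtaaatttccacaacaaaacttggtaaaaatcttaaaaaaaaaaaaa
PYL5: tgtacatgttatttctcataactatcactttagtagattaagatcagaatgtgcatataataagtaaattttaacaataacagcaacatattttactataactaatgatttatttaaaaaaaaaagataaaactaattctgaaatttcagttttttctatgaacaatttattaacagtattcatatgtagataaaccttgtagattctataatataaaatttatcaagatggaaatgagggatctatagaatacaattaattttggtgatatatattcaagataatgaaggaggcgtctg

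The core ACGTG, searched on both strands, was present in 255 of the 479 promoters of genes called lower with DPA (53.2%) and in 64 of the 273 of genes called higher (23.4%). Of the 19603 tested genes with a promoter in the reference, 5184 held it (26.4%). It was present in 7 of the 20 promoters of the genes with the largest falls, and in 17 of the 27 of the dehydration genes described below. A palindromic CACGTG holds overlapping matches on both strands and is counted as 1 stretch. A match is a string of letters in a window, and the absence of one in LTI30, HAI1 or PYL5 says only that these letters are not in these 300 bases.

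Counts called in the lists below stand beside 2.44% lower and 1.39% higher over all tested genes. Of 14 genes for ABA receptors, 9 were tested, 5 were higher with DPA than PA and none lower, with a median log2 difference of 0.69. PYL4 had 962 and 1176 normalized counts with PA and 2679 and 3188 with DPA, with mock between them at 2089 and 1892 (DPA minus PA 1.46, SE 0.12, adjusted p = 0.0003). PYL5 had 57.4 and 67.8 with PA, 231 and 257 with DPA and 146 and 136 in mock (1.95, SE 0.20, adjusted p = 0.0011). For both genes the 3 groups do not overlap, with DPA above mock and PA below it. PYL6 had 5.14 and 8.18 with PA, 59.9 and 36.1 with DPA and 23.5 and 12 in mock (2.66, SE 0.50). PYR1 and PYL1 rose by 0.69 and 0.56. The differences of these 5 from mock with DPA were 0.56 for PYL4, 0.78 for PYL5, 1.41 for PYL6, 0.28 for PYR1 and 0.33 for PYL1, none of which passed the adjusted threshold. The 4 receptor genes not called were PYL2 (0.70, 95% interval -0.03 to 1.42), PYL7 (-0.28, -0.64 to 0.08), PYL8 (0.29, 0.09 to 0.49) and PYL9 (-0.26, -0.54 to 0.02). Leaving out the PA library of higher or lower size factor left 2 or 3 receptors called, and leaving out that of DPA left 3 or 2.

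Clade A protein phosphatases 2C, the proteins that the occupied receptor blocks, were lower with DPA in 8 of 9 genes, with a median log2 difference of -1.13 against close to 0 for all genes tested. HAI1 had 295 and 303 with PA, 25 and 25.8 with DPA and 18.4 and 50.1 in mock (DPA minus PA -3.51, SE 0.34, adjusted p = 0.00083). The DPA libraries lie inside the range of mock. HAI2 had 172 and 215 with PA, 26.0 and 36.1 with DPA and 24.5 and 46.9 in mock, and HAI3 had 30.8 and 46.8 with PA, 0 and 4.13 with DPA and 1.02 and 2.18 in mock. ABI1 had 1236 and 1141 with PA against 550 and 574 with DPA, below its mock level of 610 and 678 (-1.08, SE 0.09, adjusted p = 0.0003). ABI2, HAB1, HAB2 and PP2CA were lower by 1.16, 0.79, 0.61 and 1.13 on the log2 scale. AHG1 was not called at 6.85 and 4.68 with PA and 0.999 and 5.16 with DPA (-0.93, 95% interval -2.64 to 0.79). Their summed level was 4922 and 4896 with PA, 2308 and 2439 with DPA and 2623 and 3054 in mock.

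The SnRK2 kinases, which carry the signal on to transcription factors, were called in 0 of 10 genes, with a median log2 difference of -0.22. With 2.44% of all tested genes called lower and 1.39% higher, 0 of 10 is near the general share. Both DPA libraries lay below both PA libraries in 6 of the 10 and above them in 0. Over all tested genes these shares were 27.2% and 26.1%. The kinase gene SNRK2.6, known for stomatal closure, had 345 and 344 with PA and 290 and 300 with DPA (-0.22, SE 0.10, adjusted p = 0.25). SNRK2.2 and SNRK2.3 had 95% intervals of -0.19 to 0.16 and -0.32 to 0.23. The widest interval was that of SNRK2.9, -1.19 to 0.30.

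Of 24 tested transcription factors of ABA signalling, 12 were lower and 1 was higher with DPA, and the median was -0.68. ABF3 had 896 and 893 with PA, 320 and 318 with DPA and 355 and 433 in mock (-1.49, SE 0.10, adjusted p = 7.5e-05), while ABF2 was at -0.81. The DPA libraries of ABF3 lay below both mock libraries. ABF1 and ABF4 were not called, at -0.35 (95% interval -0.55 to -0.16) and -0.28 (-0.49 to -0.07). HB7, a homeodomain factor induced by drought, had 1730 and 2039 with PA and 445 and 546 with DPA, and the NAC factor RD26 had 353 and 491 against 127 and 129. MYB41, a regulator of suberin and cuticle genes, had 27.4 and 33.9 with PA and 0.999 and 1.03 with DPA, from 61 reads against 2, a 29.7-fold ratio (95% counting interval 7.88 to 251). WRKY18, a defence-related factor, was the factor that was higher, at 71.9 and 90.0 with PA and 133 and 257 with DPA (1.19, SE 0.27, adjusted p = 0.043). ABI5, the factor of seed germination arrest, was not called at 55.7 and 21.0 with PA and 18.0 and 24.8 with DPA (-0.68, 95% interval -1.58 to 0.22). Without the PA library of lower size factor, 7 of the factors were called lower.

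Genes of dehydration tolerance gave the largest count of falls among the lists, in the list with the most tested members. By share the phosphatases, with 8 of 9, stood higher. Of 27 genes of late embryogenesis abundant (LEA) proteins, dehydrins and other dehydration-responsive proteins, 21 were lower and 0 higher, with a median of -1.55. In all 27 both DPA libraries lay below both PA libraries, against 27.2% of all tested genes. RD29A, a standard reporter of the ABA and drought response, had 3372 and 3351 with PA, 510 and 592 with DPA and 568 and 700 in mock (-2.61, SE 0.11, adjusted p = 6.2e-06). RD29B, whose promoter above holds 4 separate stretches with ACGTG, had 863 and 813 with PA, 130 and 190 with DPA and 137 and 208 in mock (-2.41, SE 0.20, adjusted p = 0.00034). In both genes the DPA and mock libraries overlap. LEA7, with 4 stretches, had 465 and 599 with PA and 41.9 and 45.4 with DPA, inside its mock range of 34.7 to 51.2. LEA4-5, with 3 stretches, had 202 and 246 with PA, 23.0 and 23.7 with DPA and 14.3 and 19.6 in mock. LTI30, with none, had 1055 and 1189 with PA and 105 and 75.4 with DPA (-3.64, SE 0.25, adjusted p = 0.0001). KIN1, with 1 stretch in its promoter, differed by -3.86. Other dehydrin genes differed less: COR47 had 6865 and 7772 with PA and 3675 and 3773 with DPA (-0.97, SE 0.09), and ERD14 6281 and 5766 against 3708 and 4036 (-0.64, SE 0.09). The proline synthesis gene P5CS1 had 4414 and 4102 with PA and 1459 and 1790 with DPA, and GOLS2, a galactinol synthase gene, had 824 and 810 against 226 and 272. The 6 genes not called were COR15B, COR413IM1, LEA18, EM6, RD22 and ERD1, from -2.12 (EM6, 95% interval -3.36 to -0.88) to -0.14 (ERD1, -0.31 to 0.04). The pairs KIN1 and KIN2, COR15A and COR15B, and LTP3 and LTP4 are close copies, so their reads may have been split between members. With an individual PA library left out, 14 of the 27 were called.

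Of 8 tested genes of ABA catabolism and conjugation, 2 were lower with DPA and 0 higher. CYP707A1, an ABA hydroxylase gene, had 569 and 544 with PA, 102 and 100 with DPA and 100 and 94.8 in mock (-2.45, SE 0.10, adjusted p = 6.2e-06). The DPA libraries lie just above the mock libraries and far below the PA libraries. The limma interval of DPA minus mock runs from -0.18 to 0.28. CYP707A2 was lower by 0.81, while CYP707A3 (77.1 and 85.3 with PA, 51.9 and 53.7 with DPA; -0.61, 95% interval -1.01 to -0.21) and CYP707A4 (-0.73, -1.32 to -0.13) were not called. Of 5 tested genes of ABA synthesis, NCED3, for the dioxygenase that limits the pathway, fell from 171 and 173 with PA to 101 and 100 with DPA (-0.77, SE 0.13), and ABA1, the epoxidase gene, by 0.51. AAO3, for the oxidase of the last step, was not called at 361 and 339 with PA and 272 and 265 with DPA (-0.38, 95% interval -0.58 to -0.18).

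Genes of lipid barriers also fell in part. Of 13 suberin and cuticle genes, 5 were lower and 0 higher, with a median of -0.92. ASFT, which attaches ferulate to suberin, had 447 and 409 with PA, 76.9 and 63.0 with DPA and 81.7 and 62.1 in mock (-2.60, SE 0.26, adjusted p = 0.001). ABCG6, a transporter for suberin, had 333 and 374 with PA and 53.9 and 29.9 with DPA, and KCS2, a fatty acid elongase gene, had 575 and 754 against 201 and 125. FAR4 and GPAT5 were lower by 1.65 and 1.59. CYP86A1, a fatty acid hydroxylase gene of root suberin, was not called at 115 and 106 with PA and 196 and 116 with DPA (0.44, 95% interval -0.35 to 1.24). Without a PA library, 3 or 2 of the 13 were called.

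The fall in MRN1, the marneral synthase gene of a root triterpene cluster, was from 635 and 447 with PA to 63.9 and 69.2 with DPA, against 38.8 and 17.4 in mock (-2.98, SE 0.35, adjusted p = 0.0022). Both DPA libraries remained above both mock libraries, by 1.32 on the log2 scale (95% interval 0.53 to 2.1), a difference that did not pass the adjusted threshold. Its cluster neighbour CYP705A12 had 238 and 199 with PA and 146 and 140 with DPA (-0.60, -1.13 to -0.07), and CYP71A16 136 and 67.8 against 110 and 79.5 (-0.04, -1.34 to 1.25), neither being called. The thalianol genes THAS1, THAH and THAD were not called either, with intervals from -0.42 to 0.66, -0.08 to 0.89 and -0.24 to 1.01. AT5G47980, listed with them, was higher with DPA, at 5.99 and 9.35 with PA and 35 and 39.2 with DPA (2.16, SE 0.44, adjusted p = 0.03). Of 7 tested seed storage and oil body genes OLEO2 was lower, from 209 and 205 with PA to 39.9 and 85.7 with DPA. The storage protein gene CRA1 had 2647 and 1033 with PA, 782 and 1345 with DPA and 623 and 1427 in mock, and the ranges of all 3 groups overlap.

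**Figure D4:**
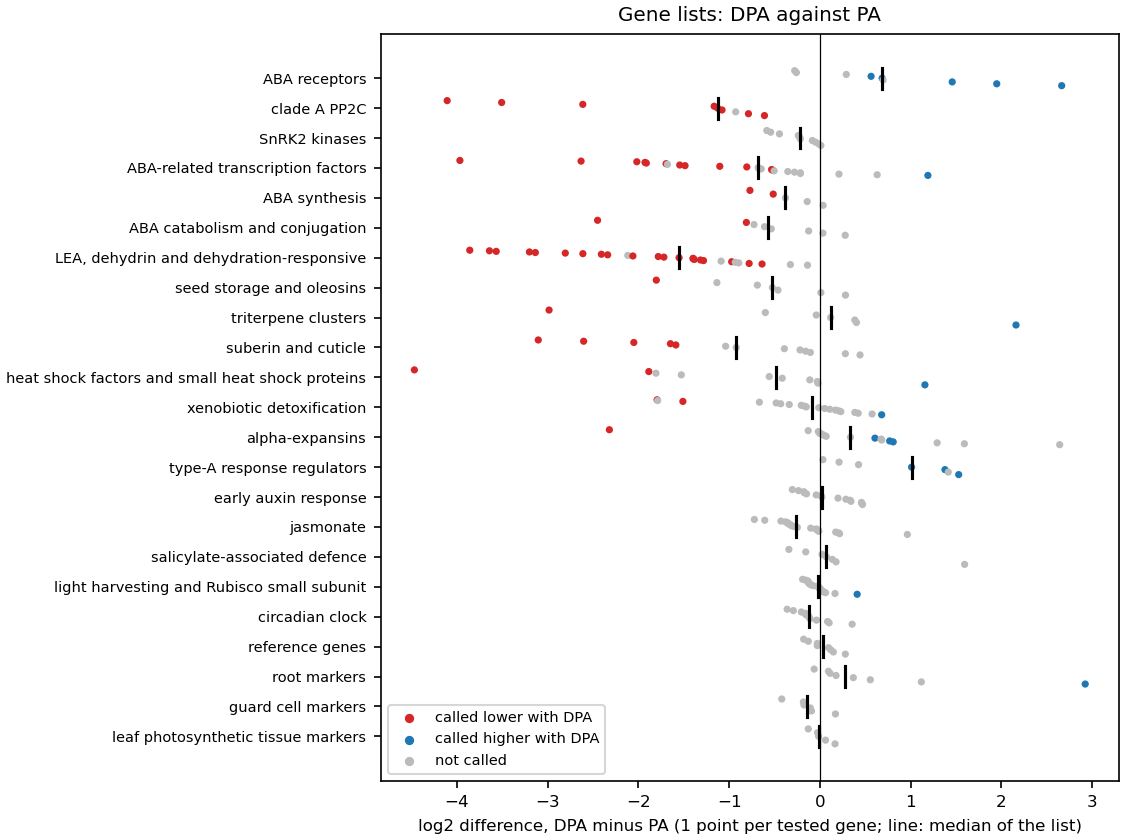
Log2 difference between DPA and PA (x axis) for the tested members of each gene list (y axis), 1 point per gene, red and blue where called and grey where not, with the median of the list as a black line. The list medians run from -1.55 in the dehydration genes and -1.13 in the phosphatases to 0.69 in the receptors and 1.01 in the type-A response regulators. Medians were 0.02 for early auxin, 0.07 for salicylate-associated, -0.02 for light harvesting, -0.12 for clock and -0.26 for jasmonate genes.

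Among the genes that were higher with DPA, the type-A response regulators of cytokinin had the highest list median. Of 7 tested, 3 were higher and 0 lower, with a median log2 difference of 1.01. ARR4 had 409 and 360 with PA, 825 and 727 with DPA and 882 and 681 in mock (1.01, SE 0.17, adjusted p = 0.012). ARR5 had 75.4 and 53.8 with PA and 178 and 157 with DPA, and ARR7 had 95.9 and 54.9 against 266 and 168. In all 3 genes the DPA libraries overlap the range of mock, and both PA libraries lie below it. ARR6 was not called at 69.4 and 36.2 with PA and 156 and 118 with DPA (1.41, 95% interval 0.48 to 2.35). Without a PA library 0 of the 7 were called, and without a DPA library 0 or 1. Of 17 alpha-expansins, which loosen cell walls, EXPA1, EXPA4 and EXPA9 were higher and EXPA16 was lower. EXPA1 had 4527 and 4351 with PA, 8536 and 7070 with DPA and 8186 and 5619 in mock (0.81, SE 0.16), while EXPA16 had 151 and 150 with PA and 26.0 and 33.0 with DPA (-2.32, SE 0.22).

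Among called genes with a DPA mean of at least 50, the 10 with the largest rises had log2 differences from 3.52 to 5.09. Their limma adjusted p ran from 0.00259 to 0.0406. In all 10 the mock mean lay above both PA libraries. The lower mock library did so in 9, the exception being AT1G52070. The 10 were ranked on their PA and DPA values, so their place beside mock is a description. The mock libraries themselves were at least 2-fold apart in 9 of the 10 and 1.99-fold in the other. The library of higher size factor was always on top. The DPA libraries were at least 2-fold apart in 3. CYP735A2, the cytokinin hydroxylase gene of trans-zeatin synthesis, had 12 and 5.85 with PA, 155 and 90.9 with DPA, 144 and 34.9 in mock and 0 in both ABA libraries (3.67, SE 0.63, adjusted p = 0.015). AT5G48430, an aspartyl protease family gene, had 5.99 and 24.6 with PA, 326 and 256 with DPA and 233 and 113 in mock. AT3G01260, a galactose mutarotase-like gene, had 3 reads with PA and 119 with DPA, a 40.7-fold ratio (95% counting interval 13.6 to 200). AT1G52070, a lectin family gene, had 8.56 and 0 with PA, 101 and 107 with DPA and 50.1 and 5.45 in mock (5.09, SE 1.1, adjusted p = 0.038). The others were AT1G26250 (extensin-like), AT1G05700 (leucine-rich repeat kinase), AT1G29090 (cysteine protease), AT5G19890 (peroxidase), AT5G62340 (invertase or pectin methylesterase inhibitor) and AT1G61840 (C1 domain protein). AT1G26250 shares 98.9% of its length with another annotated gene, and the protocol does not state that strand was kept. Apart from AT5G48430, each of the 10 lost its call without at least 1 of the PA or DPA libraries, and the same 9 did not pass with the difference of the authors' deposited fold changes (adjusted p from 0.0879 to 1).

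The root marker IRT1, the iron transporter of the root epidermis, had 10.3 and 3.51 with PA, 61.9 and 45.4 with DPA, 124 and 45.8 in mock and 0 in both ABA libraries (DPA minus PA 2.92, SE 0.59, adjusted p = 0.028). It was the single one of 8 tested root markers to be called. COBL9, a root hair marker, had 24.8 and 21.0 with PA, 49.9 and 51.6 with DPA and 64.4 and 19.6 in mock (1.12, 95% interval -0.04 to 2.28). SHR, SCR and GL2 had differences of 0.18, 0.09 and 0.11. The 8 markers had a median of 0.27 and a summed level of 41904 and 29525 with PA against 37347 and 31046 with DPA, most of it from PYK10. The 6 guard cell markers had a median of -0.14, with none called and a summed level of 1611 and 1638 with PA against 1507 and 1427 with DPA. The part of root, guard cell or seed tissue content in the differences above was not tested.

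Genes of auxin, jasmonate, salicylate and basal functions gave few calls. None of 15 early auxin genes, 20 jasmonate genes, 7 salicylate-associated genes, 12 clock genes or 8 reference genes was called. Their medians were 0.02, -0.26, 0.07, -0.12 and 0.03. Over all tested genes 2.44% were called lower and 1.39% higher, so lists of this size can hold no call without standing apart. JAZ1, a jasmonate repressor gene that the authors' deposited table calls higher with PA than mock, had 323 and 399 with PA, 311 and 265 with DPA and 203 and 161 in mock. Its DPA libraries stood below both PA libraries and above both mock libraries (DPA minus PA -0.32, SE 0.14; DPA minus mock 0.66, 95% interval 0.34 to 0.98, not past the adjusted threshold). LOX2, a lipoxygenase gene of jasmonate synthesis, had 13112 and 16194 with PA and 9756 and 12010 with DPA, with mock at 8095 and 14302. Of the 20 photosynthesis genes (light harvesting proteins and the small subunit of Rubisco), RBCS1B was higher, by 0.41, in a family whose near-identical copies can exchange reads. Of 20 genes of xenobiotic detoxification, GSTU4 and GSTU9, both for glutathione transferases, were lower and OPR1, an oxophytodienoate reductase gene, was higher. GSTU9 had 113 and 119 with PA, 51.9 and 31.0 with DPA and 22.5 and 16.4 in mock, so that both DPA libraries lay between PA and mock. Of 10 tested heat shock genes, HSFA6A and HSFA6B were lower and HSFA7A was higher, at 71.1 and 84.2 with PA and 184 and 164 with DPA (1.16, SE 0.20).

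The authors' deposited table of DPA against mock calls 3 genes. AT1G15125, a methyltransferase superfamily gene, had 306 and 397 with PA, 1324 and 1417 with DPA and 757 and 578 in mock. In the authors' deposited table its log2 ratio to mock was 1.04 with DPA (adjusted p 2.82e-08 by DESeq) and -0.92 with PA (0.0696). AT3G15356, a legume lectin family gene, had 289 and 303 with PA, 723 and 646 with DPA and 453 and 361 in mock, and the authors' deposited table gives 0.75 with DPA (adjusted p 0.0355 by DESeq). Both genes were also called higher with DPA than PA by limma, by 1.97 (SE 0.17, adjusted p = 0.00041) and 1.21 (SE 0.12, adjusted p = 0.00078). For both, all DPA libraries lie above all mock libraries and all PA libraries below them. AT3G09250, a nuclear transport factor 2 family gene, had 1675 and 1555 with DPA, 2591 and 2805 in mock and 3853 and 1856 with PA. The authors' deposited table gives -0.74 for DPA (adjusted p 0.000137 by DESeq), and the limma difference between DPA and PA was -0.73 (SE 0.28, adjusted p = 0.19). Without the PA library of lower size factor, the one nearer to DPA, that difference was -1.25. With the PA libraries at 3853 and 1856, its size depends on which of them is kept. The gene shares 138 bases with the abundant gene PYK10.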

How the data were processed

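The RNA libraries were made from oligo(dT)-bound RNA with random priming, per the labels' protocols. The tools in the submitters' processing notes are DESeq 1.8.3, HTSeq and TopHat 1.4.1, and the build is TAIR10, with no role given for any. The authors deposited 1 table per compound against mock, with group means (a signal, here normalized counts: reads of each library over its size factor, averaged over the duplicates, as the headers and the steps in the values show) and p-values with their adjusted form. The 5 rows that name no gene stayed out, and reads in no feature made 48.2% to 48.5% of the normalized total. Number of deposited columns not used for lack of a sample: 0.

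Since the deposited means move in steps of 1 read of either library, the reads of each duplicate could be worked out, with a single solution for 100% of the values above 0. Simulated means were used as a check. Which library is which replicate number cannot be told. The size factors were 1.17 and 0.855 with PA, 1.00 and 0.968 with DPA, 1.15 and 0.816 with ABA and 0.979 and 0.917 in mock.

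Differences were fitted with limma 3.58.1 in R 4.3.3 on log2(normalized count + 1) over all 8 libraries in 4 groups, with a trend, for 19617 genes averaging 10 or more. Fold changes on this scale understate changes of low genes. Genes were called at a Benjamini-Hochberg adjusted p under 0.05, and intervals are 95%. The fit has 4 residual degrees of freedom and 5.37 from the prior. The labels call the replicates biological. Counting intervals of ratios cover counting error only. The genes named are the 20 lowest and 10 highest by log2 difference among called genes with both DPA libraries on 1 side of both PA libraries and a mean of at least 50 in the higher group, the genes the authors called with DPA, and members of 24 gene lists. The members and lists were chosen with earlier results of these data known, and all the printed promoters after their values were seen. Promoters are the 300 bases before the gene start, cut from the RefSeq TAIR10.1 genome in place of the reference table that the design foresaw. Symbols come from RefSeq by locus, which held 31912 of the 32678 gene rows. Tables were handled with Python 3.11.15.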

Additional observations from a re-analysis of the deposited data

How the results depend on the processing

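With other pseudocounts, filters on low values, scalings or a robust prior, between 401 and 518 genes were lower with DPA and between 204 and 322 higher, each within 1.5 times of the value reported. The PA and DPA libraries alone gave 779 lower and 822 higher. Leaving out 1 library gave 133 to 957 lower and 40 to 857 higher. The difference of the deposited fold changes gave 52 and 14. Its calls among the lists were 3 phosphatases, 11 dehydration genes, 5 transcription factors, 2 suberin and cuticle genes, 2 receptors and 0 response regulators. Leaving out 1 library gave 6 to 8 phosphatases, 14 to 25 dehydration genes, 7 to 15 transcription factors, 2 to 6 suberin and cuticle genes, 2 to 5 receptors and 0 to 4 response regulators. These list values by library, with those of the 4 libraries alone and of trimmed mean scaling, were chosen after the data were seen. Against mock, limma called 61 genes lower with PA, and 0 higher and 0 lower with DPA. The longer motif ACGTGGC was present in 12.3% of promoters of lower genes, 0.366% of higher genes and 4.33% of all. No named gene changed direction in these settings, but calls were lost. The deposited difference lost 10 of 19 and 9 of 10 genes of largest fall and rise, a robust prior ABCG6, AT1G52070 and AT1G26250, and other pseudocounts or no filter 1 each. Leaving out 1 library lost up to 2 of the 20 genes of largest fall and 9 of the 10 of largest rise. The cause of these shifts was not tested. No paired analysis was possible because the deposited means carry no replicate numbers. Depth limits genes under a mean of 10, which were not tested.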

Other observations

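Some genes that were lower with DPA are neighbours in the genome. Of the 479 called lower, 56 (11.7%) lie directly beside another gene called lower, in 29 pairs. A gene called lower lay directly beside 3.6% of all 19604 tested genes placed on the map. The difference was not tested. AT3G22600 and AT3G22620, 697 bases apart on chromosome 3 of TAIR10.1, differed by -2.80 and -2.91 on the log2 scale. HSFA6B and ELIP1, the latter encoding an early light-induced protein, are 3345 bases apart on chromosome 3 and differed by -4.47 and -1.37. KIN1 and KIN2 on chromosome 5 are 892 bases apart, at -3.86 and -1.78, and LTP4 and LTP3 on the same chromosome are 2996 bases apart, at -2.06 and -3.13. The last 2 pairs are close copies, for which a split of reads between members was not tested.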
